A study of Homo sapiens with 24 samples.

Results

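The transcripts of 10 Krüppel-like factor (KLF) genes were examined for N6-methyladenosine (m6A) peaks across 6 human cell populations on the route from pluripotent cells to islet-like organoids. A peak was counted for a transcript when the gene field of its row held the Ensembl identifier of KLF2, KLF3, KLF4, KLF5, KLF6, KLF7, KLF9, KLF10, KLF11 or KLF13. This gave 167 peaks of the 228472 in the 6 deposited lists, on 10 of the 27200 gene identifiers that carried a peak in any list. A peak is a stretch of transcript that the peak caller listed as enriched after precipitation with an antibody against m6A (IP) over the RNA before it (input), on its own corrected scale, so that the raw IP reads need not exceed the input reads.

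All cells came from MEL1, an established human embryonic stem cell line grown on CF1 feeder cells, which the study's methods name as MEL1 INSGFP/W. In this line, wild type and knockout alike, GFP is expressed from the endogenous insulin promoter. Batch 1 of the labels held undifferentiated cells (hPSC), cells of the definitive endoderm (DE), progenitors of the pancreas (PP) and islet-like organoids (hILO), all without genetic change at ALKBH5, with mRNA and a SYSY antibody. Batch 2 held wild-type progenitors (WT PP) and progenitors with a knockout of the m6A demethylase ALKBH5 (A5-KO PP), made with CRISPR-Cpf1 and grown from picked colonies, with total RNA, a Millipore antibody and rRNA depleted from the input. Each population had 2 IP and 2 input libraries, 24 libraries in all, and the differentiated cultures are mixtures whose share of target cells was not used here. The reads of a population were pooled into 1 list, so no spread between libraries could be computed, no test between populations was made, and errors given here cover the counting of reads only. The question was which KLF messages carry the mark, where on the message, and how both differ along the stages and with the loss of ALKBH5. Batches 1 and 2 differ in RNA, antibody and kit, so a difference between a stage and a batch 2 population cannot be told apart from these.

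KLF proteins are transcription factors that bind GC-rich and CACCC elements through C2H2 zinc fingers at their C-terminal end. Their N-terminal ends differ and recruit different partners. KLF2, KLF4 and KLF5 are known for their part in pluripotency, KLF10 and KLF11 for early induction by TGF-beta, and KLF9, KLF10, KLF11 and KLF13 for repression through the SIN3A corepressor. KLF11 is also known as a regulator of insulin gene transcription in the beta cell. The METTL3-METTL14 complex writes m6A mainly at DRACH sites, where D is any base but C, R a purine and H any base but G, and GGAC is a common core of them. The mark is dense near stop codons and in long internal exons, and ALKBH5 and FTO can remove it.

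Overlapping peaks of 1 transcript were merged into 52 loci, and the locus found in the most lists was taken as the leading one. Below are the GGAC cores nearest to the middle of the leading loci of 9 transcripts, each with 8 bases on both sides, since these loci are the ones that most populations share. The sequences were read from GRCh38 on the transcript strand, 5′ to 3′ and in DNA letters, and the capitals mark GGAC.
KLF2: tatttattGGACccagagaa
KLF3: cagtgcccGGACtgtgaccg
KLF4: tccaggtcGGACcacctcgc
KLF5: gcagcaatGGACactcttaa
KLF6: gcgcagcgGGACttcgggga
KLF7: ttaagagtGGACagagcgac
KLF9: ggagggatGGACcccgaaag
KLF11: tgttcgtgGGACctgctgtg
KLF13: tgtgacttGGACcttttcag
The KLF3, KLF6, KLF7 and KLF13 sites each lay inside 6 peaks. The KLF5 and KLF9 sites lay inside 5 peaks each and the KLF11 site inside 4. The KLF2 and KLF4 sites lay inside 1 peak each, so most of their peaks missed the core shown, and those of KLF4 held other GGAC cores. The KLF3, KLF4, KLF5, KLF6, KLF7 and KLF11 sites were coding, at -67, -34, -625, -317, -318 and -546 nt from the end of the stop codon, and those of KLF2, KLF9 and KLF13 lay 91, 32 and 1080 nt past it in the 3′ untranslated region (3′UTR).

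In most of each list, the read counts on a row could not be shown to belong to the coordinates on the same row. Where peaks of 2 lists overlapped by more than 70%, their IP reads on the log2 scale gave a Pearson r of 0.80 between hPSC and DE (n = 4157 peaks) in the longest stretch of rows that stood in the order of gene identifiers, and an r of 0.84, 0.76, 0.72 and 0.69 with hPSC for PP, hILO, WT PP and A5-KO PP (n = 1137, 1026, 223 and 205). These points share genes and transcript abundance. Further down, r on the same row was 0.20, 0.14, 0.17 and 0.13 in PP, hILO, WT PP and A5-KO PP, and 0.80, 0.73, 0.75 and 0.71 with the reads of the row before. In the rest of the 5 lists compared with hPSC r on the same row ran from -0.07 to 0.05, on 226 (DE) to 1723 (A5-KO PP) matched peaks. The rest of hPSC had no matched peaks and could be checked by peak length alone. In windows of 500 rows, r with the reads 2 rows before reached 0.67 (hILO), 0.68 (WT PP) or 0.71 (A5-KO PP), and with those 3 rows before it reached 0.65 (WT PP) or 0.69 (A5-KO PP). These longer shifts were not applied. Within a list, peak length and read number of the same row gave an r of 0.089 (A5-KO PP) to 0.39 (hILO) in the ordered stretch and of -0.10 to 0.025 in the rest. Read values are therefore given for 78 of the 167 peaks, 55 from their own row and 23 from the row before (marked as such), and for the other 89 peaks only positions are given. Of these, 81 lay outside the windows compared with hPSC, all those of KLF5, KLF11 and KLF13 among them, and 5, 4 of KLF10 and 1 of KLF4 in batch 2, lay in windows where r was highest, and over 0.5, at 2 or 3 rows before. Every row kept in the lists had a log2 enrichment of at least 0.585, the log2 of 1.5, and an adjusted p under 0.05. The highest adjusted p of the peak caller was 0.028 in hILO and 0.049 to 0.050 in the other lists. Those limits held for the values on the row, also where these were the reads of another peak, and 50 (hPSC) to 4550 (WT PP) row numbers were absent from the lists. Whether a KLF peak was among the absent rows was not tested.

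The stage markers were not all confined to their stage. Of 5 markers per stage, NANOG and POU5F1 had peaks in hPSC and DE and in no later list, EOMES in DE alone, and INS, GCG and SST in hILO alone, whereas PDX1 and NKX6-1 had peaks in PP, hILO, WT PP and A5-KO PP. Against their stage, DPPA4 had 6 peaks in WT PP beside 5 in hPSC, LIN28A was listed in all 4 stages, SOX17 and CER1 in both lists of batch 2, CXCR4 and CHGA in all 6 lists, and ONECUT1 and SOX9 in hPSC with 5 and 2 peaks. NEUROD1 had 4 peaks in both hILO and A5-KO PP, 1 in PP and none in WT PP. MNX1 had 3 peaks in DE, and FOXA2 was listed in 5 lists, all but hPSC. SOX2 had none in any list. The study, by contrast, reports peaks on POU5F1 (OCT4), SOX2 and NANOG as specific to hPSC. Whether a SOX2 peak was among the absent rows or under another gene identifier was not tested. Peaks on the hepatic genes ALB, AFP and APOA1 were listed for 3 of 3 genes in hILO, 2 in WT PP, 1 each in DE and A5-KO PP and none in hPSC or PP, and peaks on the mesenchymal genes COL1A1, COL3A1 and PDGFRA for 2 or 3 of 3 in every list, and the part of such cells in the KLF peaks was not tested. ALKBH5 itself had 4 peaks in WT PP against 5 in A5-KO PP, so peaks on the targeted gene were still listed in the knockout and do not check the label.

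All 10 KLF transcripts carried a peak in hPSC, DE, PP, hILO and A5-KO PP, and 9 of 10 did so in WT PP, where KLF4 had none. These counts are of the lists as deposited, which reach past the limit of p below 1e-05 that the study's methods name. With p below 1e-05 on the row 11 of the 26 peaks remained in hPSC but 25 of 25 in hILO, so the lists may not be at the same limit. With p below 1e-10 the transcripts with a peak were 5 in hPSC, 3 in DE, 6 in both PP and A5-KO PP, 9 in hILO and 7 in WT PP. For most peaks the p on the row was not shown to be the peak's own. Among 20046 protein-coding genes the share with a peak was 60.2% in hPSC, 57% in DE, 52.2% and 57.7% in PP and hILO, 62.8% in WT PP, and 69.7% for A5-KO PP. The 10 genes were chosen with earlier results of these data known, so their presence is not a result about the family. Of the KLF genes left out, KLF8, KLF14, KLF17 and KLF18 had no peak in any list and KLF1 had 1 in DE alone. KLF16 had peaks in 5 lists, and KLF12 and KLF15 in all 6. Along the stages the KLF transcripts held 26 (hPSC), 24 (DE), 28 (PP), then 25 (hILO) peaks, with 31 peaks for WT PP against 33 for A5-KO PP. This is 2.4 to 3.3 peaks per transcript, beside a mean of 2.75 to 3.56 per protein-coding gene with a peak. KLF7 had the most with 34 over the 6 lists, followed by KLF5 with 24 and KLF13 with 23. KLF3 had 17, KLF9 had 16, KLF6 had 15, KLF10 had 12, KLF11 had 11 and KLF4 had 9. KLF2 had the fewest with 6, exactly 1 in each list. Covered length ran from 75 to 275 bases of KLF2 per list to 950 to 2284 bases of KLF7, but did not keep this order in each list. In hILO KLF3 (1225), KLF5 (1200) and KLF6 (1000) covered more bases than KLF7 (950). KLF2 did not have the shortest length in DE, PP or WT PP. KLF7 also has the longest annotated 3′UTR of the 10 at 7076 nt, against 899 nt for KLF4, the shortest.

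Numbers of peaks moved in opposite directions along the stages. KLF7 went from 8 peaks in hPSC and in DE to 6 in PP and 3 in hILO, and KLF13 from 4 to 3, 3 and 2. KLF6 went from 1 in hPSC and in DE to 2 in PP and 4 in hILO, and KLF9 from 2 and 1 to 3 and 4. KLF4 was highest with 4 in PP, with 2, 1 and 1 in the other stages. KLF5 had 2, 4, 4 and 3, KLF3 2, 1, 2 and 3, KLF11 2, 2, 1 and 2, and KLF10 2 in each. These are differences of a few listed peaks without replicates, and a peak split in pieces counts more than once. All 25 KLF peaks of hILO had p below 1e-05 on the row, against 11 of 26 in hPSC, 9 of 24 in DE and 15 of 28 in PP. Peaks of KLF7 outside its 2 loci of all 6 lists had peak-caller p-values of 2.3e-05 to 0.014 in hPSC, DE and PP. The stage counts thus may not be at the same limit.

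Of the 52 loci, 11 were present in all 6 lists (11.1% of the 69552 loci of all protein-coding genes, joined in the same way) and belonged to 9 transcripts, each of the 10 except KLF4. KLF5 and KLF7 had 2 such loci each. A further 7 loci brought the number found in at least 4 lists to 18 (25% of all loci), and 23 loci were found in 1 list only (50.7%). Both batches shared 25 loci (33.8%), 13 were found in the stages only (27.4%) and 14 in batch 2 only (38.8%). Of the 13 stage-only loci KLF7 held 6 and KLF4 held 3, and of the 14 in batch 2 only KLF13 held 5 and KLF5 held 3.

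Positions were read on the coding isoform with the longest coding sequence in GENCODE 44, which placed 160 of the 167 peaks. Of these, 78 lay in the 3′UTR, 69 in the coding sequence (CDS) and 13 in the 5′ untranslated region (5′UTR). The 3′UTR held 14 of 26 placed peaks in hPSC (37.8% of all placed peaks of the list), 13 of 24 in DE (42.2%), 11 of 27 in PP (35.8%), 13 of 24 in hILO (39.8%), 14 of 29 in WT PP (41.4%) and 13 of 30 in A5-KO PP (35%). Within 200 nt of the end of the stop codon lay 8 peaks in hPSC (21.3% of all placed peaks), 6 in DE (22.6%), 5 at the PP stage (20.6%), 6 in hILO (22.2%), 6 for WT PP (19.5%) and 5 for A5-KO PP (18.7%). The transcripts differed from each other more than the populations did. KLF13 had 20 of 22 placed peaks in the 3′UTR and KLF2 6 of 6, whereas KLF10 had 12 of 12 in the CDS and KLF5 13 of 24. KLF7 had 17 in the 3′UTR and 13 in the CDS. Peaks within 200 nt of the stop codon were found for KLF5 (7), KLF3 (6), KLF9 (6), KLF10 (5), KLF2 (4), KLF11 (4), KLF4 (2), KLF6 (1) and KLF7 (1), and none was for KLF13.

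**Figure D1:**
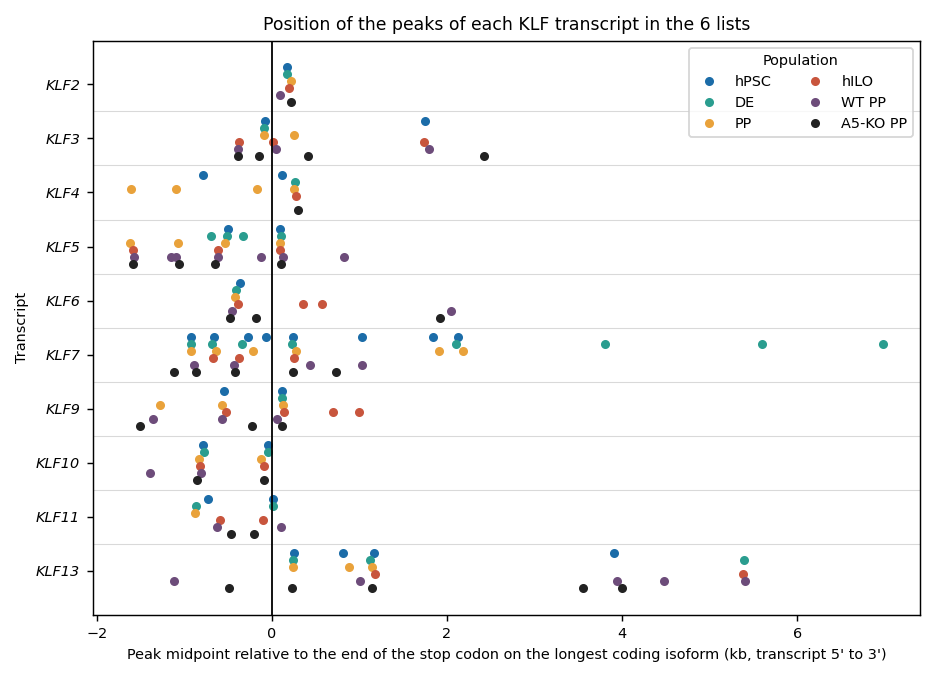
Midpoints of the 160 placed peaks relative to the end of the stop codon (x axis, kb along the transcript, 0 at the black line) for each KLF transcript (y axis), with 1 colour per population. Peaks of KLF2 lay just past the stop codon in each list, those of KLF10 before it, and those of KLF7 and KLF13 reached several kb into the 3′UTR.

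GGAC was searched on the transcript strand in the exonic bases of each peak. It was present in 19 of 26 KLF peaks in hPSC (57.8% of all peaks of the list), 14 of 24 in DE (54.6%), 19 of 28 in PP (51.4%), 16 of 25 in hILO (55.9%), 21 of 31 in WT PP (56.9%) and 17 of 33 in A5-KO PP (54%). KLF peaks had a median exonic length of 175 to 275 bases per list beside 175 bases over all peaks, and a longer stretch holds a short motif more often. GGAC on the opposite strand, which is not part of the transcript, was present in 18, 12, 14 and 15 KLF peaks from hPSC to hILO, and in 23 in WT PP against 18 in A5-KO PP, more than on the transcript strand in batch 2. A GGAC core in a peak is thus given as a description of its sequence and not as a methylated site. Over the 6 lists, GGAC was in 23 of 34 peaks of KLF7, 15 of 23 of KLF13, 12 of 15 of KLF6, 12 of 17 of KLF3, 12 of 16 of KLF9, 9 of 11 of KLF11, 8 of 9 of KLF4, 9 of 24 of KLF5, 5 of 12 of KLF10 and 1 of 6 of KLF2. Any DRACH site was in 155 of the 167 peaks (90.8% of all peaks of the 6 lists).

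KLF2, a factor of the vascular endothelium and of naive pluripotency, had a single peak in each list, always in the 3′UTR. The 6 peaks formed 1 locus at chr19:16326991-16327365 on the plus strand, with midpoints 97 to 222 nt past the stop codon. Input and IP reads were 8 and 106 in hPSC and 8 and 55 in DE, then 21 with 143 for PP and 21 with 121 for hILO. Taken from the row before, they were 0 and 108 for WT PP and 0 and 105 for A5-KO PP. The message was thus thinly covered in each population, and with no input read in batch 2 no ratio of IP to input can be given there. The deposited log2 enrichment was 1.86 ± 0.51 (counting error) in hPSC, 2.42 ± 0.53 in DE, 1.78 ± 0.33 at the PP stage, 2.32 ± 0.34 for hILO, with neighbouring stages apart by less than 2 counting errors.

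KLF4, a reprogramming factor, had its leading locus at chr9:107485352-107487102 on the minus strand, around the stop codon and in the 3′UTR, in each stage and in A5-KO PP. In hPSC the 3′UTR peak of 525 bases had 60 input and 864 IP reads and a deposited log2 enrichment of 2.42 ± 0.19. In DE it was 125 bases long with 0 input and 31 IP reads. From the row before, the PP peak had 86 input and 496 IP reads, and that of hILO 52 and 229, and a further PP peak of the locus, in the CDS, had 22 and 171. After subtraction of the median log2 ratio of the list, the log2 ratio of IP to input was 0.53 ± 0.19 in hPSC, 0.32 ± 0.17 for PP and 0.71 ± 0.22 for hILO, within 2 counting errors of each other. The DE peak rests on too few reads to be placed in this order. KLF4 further had a coding peak in hPSC only (16 input and 169 IP reads) and a 5′UTR peak (5 and 50 reads, row before) and a coding peak (34 and 240 reads, row before) in PP only.

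KLF5, which sustains self-renewal and is broken down through FBXW7 and WWP1, had 2 loci in all 6 lists. Its leading locus was a stretch of up to 750 coding bases at chr13:73061984-73062733 on the plus strand. It was 1 peak of 475 bases in hPSC, 3 peaks of 75 to 200 bases in DE, 1 peak of 550 bases at the PP stage, 1 of 750 bases in both hILO and WT PP, and 1 of 625 bases in A5-KO PP. The other lay at chr13:73075863-73076162, 89 to 127 nt past the stop codon, and held no GGAC in any list. A 5′UTR locus at chr13:73055151-73059246 was listed in PP, hILO, WT PP and A5-KO PP and in neither hPSC nor DE. The reads of KLF5 were not traced to rows, so no enrichment is given.

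KLF10 and KLF11, the TGF-beta inducible pair, carried mostly coding peaks. KLF10 had exactly 2 peaks per list. Its leading locus at chr8:102651541-102651890 on the minus strand was present in all 6 lists, with midpoints from -776 to -851 nt relative to the end of the stop codon, and held no GGAC. A second locus at chr8:102649959-102651240, which runs over an exon junction and the stop codon, was present in 5 lists and absent from WT PP, where a 75-base peak further upstream was listed. For the leading locus, input and IP reads were 218 and 1737 in hPSC, 102 and 216 in DE and, from the row before, 254 and 831 in PP, 731 and 1675 for hILO. For the locus at the stop codon they were 325 and 3742 in hPSC, 205 and 585 in DE and, from the row before, 809 and 3690 in PP, 1205 and 3523 for hILO. The locus at the stop codon was the more enriched in each of the 4 stages. Its log2 ratio minus the list median was 0.23 ± 0.08, 0.16 ± 0.12, -0.01 ± 0.06 and 0.14 ± 0.05 from hPSC to hILO, against -0.30 ± 0.10, -0.28 ± 0.17, -0.49 ± 0.10 and -0.22 ± 0.06 at the leading locus.

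KLF11 had all its 11 peaks in 1 merged locus, chr2:10047812-10052717 on the plus strand, which spans coding bases over exon junctions and the start of the 3′UTR. Coding peaks were listed in all 6 populations, and peaks within 200 nt of the stop codon in hPSC, DE, hILO and WT PP. From hPSC to hILO the covered length was 925, 450, 125 and 425 bases, and it was 1100 bases in WT PP against 475 in A5-KO PP. PP had the shortest stretch and WT PP, progenitors of the same stage from the other batch, the longest. Reads were not traced.

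KLF9, induced by glucocorticoid and thyroid hormone, had its leading locus in the 3′UTR at chr9:70387472-70387921 on the minus strand, 55 to 142 nt past the stop codon, in all 6 lists. Input and IP reads were 18 and 312 in hPSC, 1 and 24 in DE, then 77 with 527 for PP and 408 with 1569 for hILO. From the row before they were 22 and 412 for WT PP, 17 and 190 for A5-KO PP. hILO had the most input reads and DE the fewest. The deposited log2 enrichment was 2.57 ± 0.35 in hPSC, 1.94 ± 0.18 for PP and 1.99 ± 0.08 for hILO, within 2 counting errors of each other, and 3.77 ± 1.21 in DE on 25 reads in all. A coding locus was listed in hPSC, PP, hILO and WT PP, with 19 and 263, 40 and 369, and 237 and 799 reads in the stages and 12 and 152 in WT PP (row before). A pair of further 3′UTR peaks was found in hILO alone, at 692 and 992 nt, with 120 and 246 reads and 150 and 251 reads.

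KLF13, which shares the SIN3A-binding N-terminal part with KLF9, was marked almost entirely in its 3′UTR of 5600 nt. The leading locus at chr15:31372899-31373698 on the plus strand was in all 6 lists, and a second at chr15:31372274-31372823 was in hPSC, DE, PP and A5-KO PP. Distal loci between 3550 and 5387 nt past the stop codon were listed in hPSC, DE, hILO, WT PP and A5-KO PP, and 4 of the 5 loci that KLF13 had in batch 2 only were 50 to 100 bases long. Reads were not traced.

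KLF3, a repressor that works through CtBP, had its leading locus at chr4:38690678-38697771 on the plus strand, from the last coding exons into the 3′UTR, in all 6 lists. Reads were traced in batch 2 alone. In WT PP the locus was 1 peak of 925 bases with 1635 input and 3139 IP reads, and in A5-KO PP 1 peak of 525 bases with 1169 and 1539 reads and 1 of 50 bases with 38 and 27 reads. A coding locus at chr4:38689046-38689952 had 1033 and 1147 reads in WT PP and 848 and 801 in A5-KO PP, and a locus outside the exons of the isoform had 105 and 147 reads in WT PP and 38 and 34 in A5-KO PP. IP reads exceeded input reads 1.92 times at the leading peak of WT PP and 1.32 times at the longer peak of A5-KO PP, and 3 of the 5 A5-KO PP peaks had fewer IP than input reads, yet the deposited log2 enrichment of the leading peak was 3.90 for WT PP and 3.35 for A5-KO PP. The deposited value includes corrections by the peak caller, and over peaks under 40% GC it exceeded the log2 ratio of the counts by a median of 2.82 for WT PP and 2.91 for A5-KO PP, against 1.39 and 1.51 over peaks above 60% GC.

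KLF6, an immediate-early gene of tissue injury, had its leading locus in the CDS at chr10:3781561-3782185 on the minus strand in all 6 lists, with 2 to 4 GGAC cores in the main peak. A second locus just downstream, outside the exons of the longest coding isoform, was listed in PP, hILO, WT PP and A5-KO PP and in neither hPSC nor DE. Peaks in the 3′UTR were listed at 356 and 569 nt in hILO alone and at about the same distal place in WT PP and A5-KO PP, 2044 and 1919 nt past the stop codon. Reads were not traced.

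KLF7, a factor of neuronal development, had 11 loci. The leading locus was coding, at chr2:207088505-207134129 on the minus strand with most of its bases in the large coding exon, and a second locus in all 6 lists lay at chr2:207080312-207081236 in the 3′UTR, 227 to 727 nt past the stop codon. In hPSC the 2 coding peaks of the leading locus had 91 and 1017, and 167 and 1604 input and IP reads, and the 3′UTR peak had 130 and 1701. IP exceeded input 11.2 and 9.60 times at the coding peaks and 13.1 times at the 3′UTR peak. In DE the reads were 146 and 342, 373 and 756, and 256 and 730, and IP exceeded input 2.34, 2.03 and 2.85 times. In PP the reads were 67 and 379, 142 and 605, and 88 and 455, or 5.66, 4.26 and 5.17 times. On the log2 ratio minus the list median, the coding peak with more reads already lay below the 3′UTR peak in hPSC (-0.04 ± 0.12 against 0.41 ± 0.13) and in DE (-0.33 ± 0.09 against 0.16 ± 0.10). In hILO the reads were 361 and 597, 1376 and 2220, and 332 and 1367, and IP exceeded input 1.65 and 1.61 times at the coding peaks against 4.12 times at the 3′UTR peak.

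On the deposited log2 scale, the coding peaks of KLF7 went from 2.46 and 2.05 in PP to 0.97 and 0.93 in hILO, differences of -1.49 ± 0.21 and -1.12 ± 0.14, over 2 counting errors. The paired stretches were called separately and were not the same bases, with 325 bases in PP against 150 in hILO and 359 against 350. The 359-base PP peak ran into the next exon and the 350-base hILO peak did not. The 3′UTR peak went from 2.08 to 2.21, a difference of 0.13 ± 0.19. On the log2 ratio of counts minus the list median, the coding differences were -0.97 ± 0.21 and -0.61 ± 0.14 and the 3′UTR difference was 0.47 ± 0.19, over 2 counting errors in the other direction. Both scales placed the coding peaks below the 3′UTR peak in hILO. Without replicates it is not known whether these differences exceed the spread between cultures. KLF7 also had fewer listed peaks in hILO, where the KLF peaks had a lower p than many in the other stages. A locus 2114 nt past the stop codon was in hPSC, DE and PP (10 and 113, 53 and 105, and 10 and 40 reads) but not in hILO, and peaks at 3802, 5602 and 6977 nt were in DE alone.

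From hPSC to DE, 18 of the 24 DE peaks of KLF transcripts had more than 50% of their exonic length inside an hPSC peak (64.6% of all DE peaks). From DE to PP this held for 14 of 28 (56.9% of all PP peaks), and from PP to hILO for 15 of 25 (45.5% of all hILO peaks). The peaks not shared in PP included 4 of 4 of KLF4 and 3 of 3 of KLF9, whose single DE peaks of 125 and 75 bases were themselves covered by longer PP peaks. Those not shared in hILO included 2 of 2 of KLF11. KLF2 was shared in each of the 3 steps, and KLF7 with 4 of 8, 4 of 6 and 3 of 3.

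Enrichment could be compared at 9 shared pairs of 5 KLF transcripts between hPSC and DE. The median difference in deposited log2 enrichment, DE minus hPSC, was -0.15, beside -0.12 over 7368 pairs of all genes. Of the 9 pairs 6 were lower in DE (66.5% of all pairs). The largest falls among pairs with at least 50 input reads were those of KLF7, -0.27 ± 0.17 in the 3′UTR and -0.25 ± 0.21 and -0.25 ± 0.15 in the CDS, each within 2 counting errors, and no such pair was higher. On the log2 ratio of counts 5 of 9 were lower (57.4%), and the second of these coding pairs passed 2 counting errors with -0.30 ± 0.15. Between DE and PP, 2 of 5 pairs were lower in PP (72.9% of all pairs) and the median was 0.07, beside -0.21 over 2087 pairs. The rises were in the CDS of KLF7, 0.59 ± 0.24 and 0.42 ± 0.16, over 2 counting errors, and in its 3′UTR, 0.07 ± 0.20. The paired coding stretches were not the same bases, with 225 and 300 in DE against 325 and 359 in PP. On the log2 ratio of counts the same coding pairs differed by 0.41 ± 0.24 and 0.22 ± 0.16, and 0 of 7 pairs passed 2 counting errors. With the reads of the row before included, 3 of 7 were lower (65.1%). Between PP and hILO, 3 of 6 pairs were lower in hILO (49.9%), with a median of -0.12 beside 0.0015 over 1570 pairs, and 4 of 8 were lower on the log2 ratio of counts (29.1%). The sign of this median was not stable, with 0.056 over the 8 pairs on counts, 0.049 over all shared pairs with values as they stand on the rows, and -0.53 over the pairs with at least 50 input reads. Apart from KLF7, the pairs with at least 50 input reads in that step were the 3′UTR of KLF9 with 0.05 ± 0.19 and, on counts alone, KLF4 with 0.39 ± 0.28 and the stop codon locus of KLF10 with 0.14 ± 0.07. The coding pair of KLF9, named after its values were seen and with 40 input reads in PP, differed by -0.29 ± 0.26 in deposited log2 enrichment and by -0.64 ± 0.26 on counts, over 2 counting errors.

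WT PP and A5-KO PP were compared within 1 batch, and they differ in more than the ALKBH5 gene. The knockout cells were grown from picked colonies. The study reports fewer cells with both progenitor markers, and more albumin-positive cells, in knockout cultures at this stage. Whether the gene, the picked line or the mix of cells goes with the differences below was not tested. Of the 33 A5-KO PP peaks of KLF transcripts, 23 lay by more than 50% of their length inside a WT PP peak (46.7% of all A5-KO PP peaks), and of the 31 WT PP peaks 13 lay inside an A5-KO PP peak (49.8% over all WT PP peaks). The larger first number goes with longer peaks in WT PP, where the KLF transcripts had 10659 bases under 31 peaks against 8334 bases under 33 in A5-KO PP. KLF5 had 7 peaks in WT PP against 4 in A5-KO PP, KLF3 4 and 5, KLF6 3 and 4, KLF7 4 and 5, KLF13 5 and 6, and KLF4 0 and 1. KLF2, KLF9, KLF10 and KLF11 had equal numbers. Of the 10 A5-KO PP peaks that were not shared, 4 were of KLF13.

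Enrichment on their own rows could be compared at 4 shared pairs, each of them of KLF3 and resting on 3 WT PP peaks. The 4 deposited log2 values were lower in A5-KO PP (52.4% of all pairs), with a median difference of -0.45 beside -0.05 over 2301 pairs of all genes. Among pairs with at least 50 input reads the differences were -0.54 ± 0.07 at the leading locus, over 2 counting errors, and -0.16 ± 0.09 at the upstream coding locus. With the reads of the row before, 8 pairs of KLF2, KLF3, KLF7 and KLF9 could be compared on the log2 ratio of counts minus the list median, and 8 of 8 were lower in A5-KO PP (73.5% of all pairs). These pairs rest on 6 WT PP peaks, since the 925-base peaks of KLF3 and KLF7 were each set against 2 A5-KO PP peaks, and the shorter of these gave the largest differences of -1.82 ± 0.36 and -2.15 ± 0.25. The median of the 8 differences was -0.997, beside -0.56 over 4282 pairs of all genes. Over all 23 shared pairs with the deposited log2 values as they stand on the rows, 11 were higher and 12 lower in A5-KO PP, with a median of -0.16 beside 0.24 over 25765 pairs. The 3′UTR locus of KLF7 had 204 input and 1477 IP reads in WT PP, and 134 and 707 in the longer of its 2 peaks in A5-KO PP, a difference of -0.87 ± 0.17. The 3′UTR peak of KLF9 differed by -1.17 ± 0.48. The KLF2 peak, with no input read in either list, differed by -0.45 ± 2.89 and tells nothing of a direction. Subtraction of the list median leaves the median of all shared pairs at -0.56, so most of the KLF differences lay below 0 together with those of most other transcripts. Whether 1 library of either genotype carried them was not tested. The study reports hypermethylated peaks on many genes in A5-KO PP from its own differential analysis. That analysis was not repeated here, and the count ratios were not set against it.

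Other members of the KLF and SP families, which share the zinc fingers, were read from the same lists. Of 17 such genes, 10 had a peak in hPSC and the same number in DE, 7 in PP as in hILO, and 9 in either list of batch 2, and 6 had peaks in all 6 lists, where 37.7% of protein-coding genes had one in all 6. These shares lay near or below those over all protein-coding genes given above. SP3 had the most with 29 over the lists, followed by SP4 with 23, KLF12 with 21 and SP1 with 19. KLF8, KLF14, KLF17, KLF18 and SP9 had none. SP8 and SP5 had 3 peaks each in hPSC, 1 each in DE and none in PP or hILO, while SP5 had 1 peak each in WT PP and A5-KO PP and SP8 none there.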

How the data were processed

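m6A-seq libraries of 6 populations of MEL1 cells were analysed from 1 peak list each. The submitters' processing notes name fastp, HISAT2 and HOMER and GRCh38, and the study's methods name exomePeak2 for peak calling. The authors deposited for each peak pooled IP and input read counts, a log2 enrichment, and a p-value, raw and adjusted. Whether pooled counts are sums or means was not stated. As deposited, the p-values and log2 values carry the corrections of the peak caller.

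The 10 KLF genes, the other gene lists and the rules were chosen with earlier results of these data known. All 10 are named, with the leading locus (most lists, then most IP reads on the rows) in every list, and the 3 largest differences per step among pairs with at least 50 input reads. Peaks were placed on GENCODE 44 exons, and a peak was shared when over 50% of its exonic length was covered. Rows were put in the order of their numbers, and rows farther than 200 ranks from a rolling median of 15 rows were called out of place (6.05% to 9.13% of rows). Reads were taken from the peak's own row or the row before, as the match with hPSC showed, and shifts of 2 or 3 rows were not applied. The planned median over all shared peaks was limited, after the rows had been checked, to pairs with reads on their own rows. Log2 ratios of counts used a pseudocount of 1, and counting errors 0.5 added to each count. They take the counts as sums, and PCR copies are not independent molecules. Total depth per library is not in the lists used here. No test between populations was made. Row matching, overlap and errors were tested on simulated data. Analyses ran in Python 3.11.15 with pandas 2.3.3, numpy 2.4.6, pysam 0.24.0 and matplotlib 3.10.9.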

Additional observations from a re-analysis of the deposited data

How the results depend on the processing

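No paired analysis was possible because each list pools the libraries of a population, and for the same reason no replicate could be left out. Of 122 alternative values, 87 stayed within 1.5 times the reported count or 1 counting error of the reported median. Stricter limits on the values of the deposited row, which for most peaks were not shown to be their own, lowered the KLF peaks per list. The exception was p below 1e-05, which left all of them in hILO. An IP/input of at least 3 left 15 in hPSC, 15 in DE and 11 in hILO. A p below 1e-05 left 11, 9, 15, 18 and 16 in hPSC, DE, PP, WT PP and A5-KO PP, and 25 of 25 in hILO. A p below 1e-10 left 8, 5, 11, 15 and 8 in these 5 lists and 17 in hILO. The transcripts with such a peak were 5 in hPSC, 3 for DE, 6 for PP, 9 for hILO, 7 for WT PP and 6 for A5-KO PP. At least 50 input reads left 13, 14, 14, 20 and 12 in the same 5 lists and 22 in hILO. With DRACH in place of GGAC, 25 peaks of hILO and 30 of A5-KO PP held a site. With reciprocal overlap, shared peaks were 11 from hPSC to DE and 13 from WT PP to A5-KO PP, and 13 when counted from WT PP. With at least 50 input reads the median difference in log2 enrichment was 0.42 from DE to PP and -0.53 from PP to hILO. The latter turned to 0.056 on counts with the row before and to 0.049 with all values as they stand on the row. From WT PP to A5-KO PP it was -0.997 on counts with a pseudocount of 1, -1.01 with 0.5, -0.997 with the row before and -0.16 with all values as they stand. The last settings differ in which pairs they hold. The 2 settings on rows were added as alternatives after seeing the data. Depth limits KLF2, with 0 to 21 input reads per list, and KLF4 and KLF9 in DE, with 0 and 1.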

Other observations

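The proteins that KLF factors recruit or are broken down by were read from the same lists. Of 14 genes for corepressors, coactivators and ubiquitin ligases, 12 or 13 carried a peak in each list and 10 did so in all 6, beside 52.2% to 69.7% of protein-coding genes per list and 37.7% in all 6. No test of this difference was made. EP300 and CREBBP, the histone acetyltransferases that KLF proteins bind, had 40 and 36 peaks over the lists, SIN3B had 33, SIN3A had 27 and CTBP1 had 27. FBXW7, which targets KLF5 for breakdown, had 3, 4, 6 and 4 peaks from hPSC to hILO, and 8 in WT PP against 5 in A5-KO PP. HDAC1 had peaks in the 4 stages and none in batch 2, and KAT2B had 1 peak in PP alone. These are counts of listed peaks with no replicate.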
